A study of Mus musculus with 4 samples.

Results

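The genes described here are 10 members of TGF-β and BMP signaling, followed through the spinal cord (SC) cells of mice with EAE, an induced autoimmune inflammation of the CNS. They were chosen by name, *Tgfb1*, *Tgfbr1*, *Tgfbr2*, *Smad3*, *Smad6*, *Smad7*, *Tgfbi*, *Eng*, *Acvrl1*, and *Id1*, and each has 1 row among the 27998 genes of the deposited tables. Their transcripts were counted in droplets that held at least 2000 unique molecular identifiers (UMIs), the tags that let PCR copies of a captured transcript be counted once. Cell types were set by marker transcripts, *Cldn5* for ECs, *Ly6c2* for monocytes, *Tmem119* with *P2ry12* for microglia, and *Cd3e* with *Lat* for T cells.

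TGF-β ligands are secreted in a latent form and, once released, bring together the type II receptor TGFBR2 and the type I receptor TGFBR1, which phosphorylates SMAD2 and SMAD3. BMP ligands act on ECs through another type I receptor, ALK1, the product of *Acvrl1*, together with the coreceptor endoglin, the product of *Eng*, and their signal passes through SMAD1 and SMAD5 to genes such as *Id1*. SMAD6 and SMAD7 are inhibitory SMADs that are themselves induced by the pathways they restrain. In the CNS, TGF-β is known for maintaining the microglial gene program, whereas ALK1 and endoglin are known for their part in vessel patterning.

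The 4 conditions were sequenced as 1 library each. In the blockade pair, 15-week-old wild-type C57Bl/6JOlaHsd mice received control mIgG1 or the Ang2-blocking Ab (Ang2 Ab, labeled A2 antibody) from EAE induction onward, and tissue was taken at 14 dpi. In the overexpression pair, aged 12 to 14 weeks, *EC-Ang2* mice carried an Ang2 transgene (*Tet-OS-Ang2*) driven in ECs by *VE-cadherin-tTA* and kept off by doxycycline until birth, Ctrl mice were single transgenic littermates, and tissue was taken at 12 dpi. The transgenic lines were on a C57BL/6J background. All mice were immunized with MOG35-55 in CFA and given pertussis toxin, at a lower dose in the overexpression pair. Each library held CD45+ leukocytes and CD31+ ECs sorted in equal numbers from SCs, with the number of mice behind a library not given. Strain, age, pertussis toxin dose, and day of sampling differ between the pairs, so that ratios were taken only within a pair.

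The libraries held 52084739 to 66631583 UMIs, and 5427 to 7498 droplets reached 2000 UMIs. The order mIgG1, Ang2 Ab, Ctrl, *EC-Ang2* is kept throughout where 4 values are given. ECs numbered 3119, 3623, 3697, and 2422, and monocytes numbered 1719, 1552, 692, and 1552. Microglia numbered 205, 298, 867, and 64, and T cells 311, 253, 161, and 324. The 8 other EC markers summed to 6270 to 9851 CPM (UMIs per 1000000 UMIs of the cells of that type) in ECs and to 89.0 to 240 CPM in the other types, and the 4 other T cell markers summed to 2575 to 2880 CPM in T cells and to at most 38.6 CPM elsewhere. The myeloid gates were less clean. The 5 other microglial markers summed to 4557, 4911, 8572, and 5411 CPM in microglia and to at most 704 CPM elsewhere. The 5 other monocyte markers, among them *Lyz2*, summed to 21861 to 31997 CPM in monocytes and to 7822, 4325, 1954, and 1925 CPM in microglia. In mIgG1 microglia this sum was above that of their own list, but most of it was *Lyz2*, a gene of myeloid cells in general. There *Lyz2* was at 26.0% of its monocyte level, and the sum of *Ccr2*, *Plac8*, *Chil3*, and *Ms4a4c* at 12.5%. The monocyte gate also held granulocyte RNA (*S100a8*, *S100a9*, and *Retnlg* summed to 538, 1558, 11880, and 2716 CPM) and dendritic cell RNA (*Flt3*, *Ccr7*, *Kmo*, and *Ccl17*, 40.0, 324, 522, and 98.9 CPM), the T cell gate NK cell RNA (*Ncr1*, *Klrb1c*, and *Nkg7*, 750, 423, 422, and 328 CPM), and the EC gate mural cell RNA (*Pdgfrb*, *Rgs5*, *Kcnj8*, *Vtn*, and *Acta2*, 582, 716, 727, and 346 CPM). *Angpt2*, the gene of Ang2, had 47.8, 285, 61.9, and 1075 CPM in ECs. Libraries shared 51 to 77 droplet barcodes per pair, near the 48.9 to 71.3 given by independent draws.

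RNA from other cells entered every type. The share of UMIs so carried over, from free RNA and undetected doublets alike, was set by genes of other cell types relative to their level in empty droplets. By immune genes it was 12.6%, 12.5%, 6.10%, and 4.10% in ECs, and by EC genes it was 2.94% to 3.55% in monocytes, 2.54% to 3.90% in microglia, and 2.44% to 3.48% in T cells. Measured by 4 myeloid genes, the share in T cells was 32.2%, 25.7%, 20.3%, and 7.58%. Applied to *Eng* in T cells, this myeloid measure would give 727%, 765%, 452%, and 224% of the measured level. It is therefore too high for carried-over RNA as a whole, and is otherwise set only beside *Tgfbr1*, *Tgfbi*, and *Thbs1* in T cells. Why it differs from the measure by EC genes was not tested. For each gene and type, the share gives the level that carry-over alone would leave, which is set beside the measured level where it bears on it.

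RefSeq promoter entries on GRCm38.p6 were found for 7 of the 10 genes, and *Smad7* was not searched. The bases upstream of the transcription start are shown for *Smad6* and *Eng*, highest in ECs, and for *Tgfbi*, highest in monocytes, because their opposite distribution runs through the results. Capitals mark GTCTG, the short Smad element, and GGCGCC, a GC-rich element of BMP target genes, each searched on both strands. The *Smad6* sequence (minus strand, chr9:64022060-64022309) held neither, the *Eng* sequence (plus strand, chr2:32646345-32646594) held GTCTG at 2 places, and the *Tgfbi* sequence (plus strand, chr13:56609336-56609522) held GTCTG at 2 places and GGCGCC at 1.
Smad6: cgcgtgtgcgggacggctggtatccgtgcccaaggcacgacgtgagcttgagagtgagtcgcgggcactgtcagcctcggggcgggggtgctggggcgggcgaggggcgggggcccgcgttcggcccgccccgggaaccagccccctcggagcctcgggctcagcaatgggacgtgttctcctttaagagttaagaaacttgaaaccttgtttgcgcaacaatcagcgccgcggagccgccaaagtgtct
Eng: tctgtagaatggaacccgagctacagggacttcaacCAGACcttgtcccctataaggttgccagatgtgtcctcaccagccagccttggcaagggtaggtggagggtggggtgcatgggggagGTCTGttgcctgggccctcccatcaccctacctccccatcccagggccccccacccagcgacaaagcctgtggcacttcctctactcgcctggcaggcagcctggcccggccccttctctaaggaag
Tgfbi: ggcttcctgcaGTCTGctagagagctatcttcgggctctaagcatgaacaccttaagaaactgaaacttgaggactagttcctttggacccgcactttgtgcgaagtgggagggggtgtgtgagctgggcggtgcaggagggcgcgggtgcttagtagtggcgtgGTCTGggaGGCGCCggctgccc
Among all 32851 promoter entries, GTCTG was present in 42.2% over 250 bases and in 34.2% over the 187 bases used for *Tgfbi*, and GGCGCC was present in 9.59% and 6.49%, so that the matches describe these sequences and mark no site of binding. GC content was 66.8% for *Smad6*, 62.4% for *Eng*, and 59.4% for *Tgfbi*.

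By mean level, 5 of the 10 genes were highest in ECs (*Tgfbr2*, *Smad6*, *Eng*, *Acvrl1*, and *Id1*), 3 in T cells (*Tgfb1*, *Smad3*, and *Smad7*), 1 in monocytes (*Tgfbi*), and 1 in microglia (*Tgfbr1*). Levels are given as the value of each library and, across the 4 libraries, as mean ± SD. The libraries are 4 different conditions, so that this SD holds the differences between conditions as well as the spread between libraries. Cell types were compared within libraries by an exact two-sided sign-flip test, for which 4 libraries allow no p below 0.125.

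**Figure D1:**
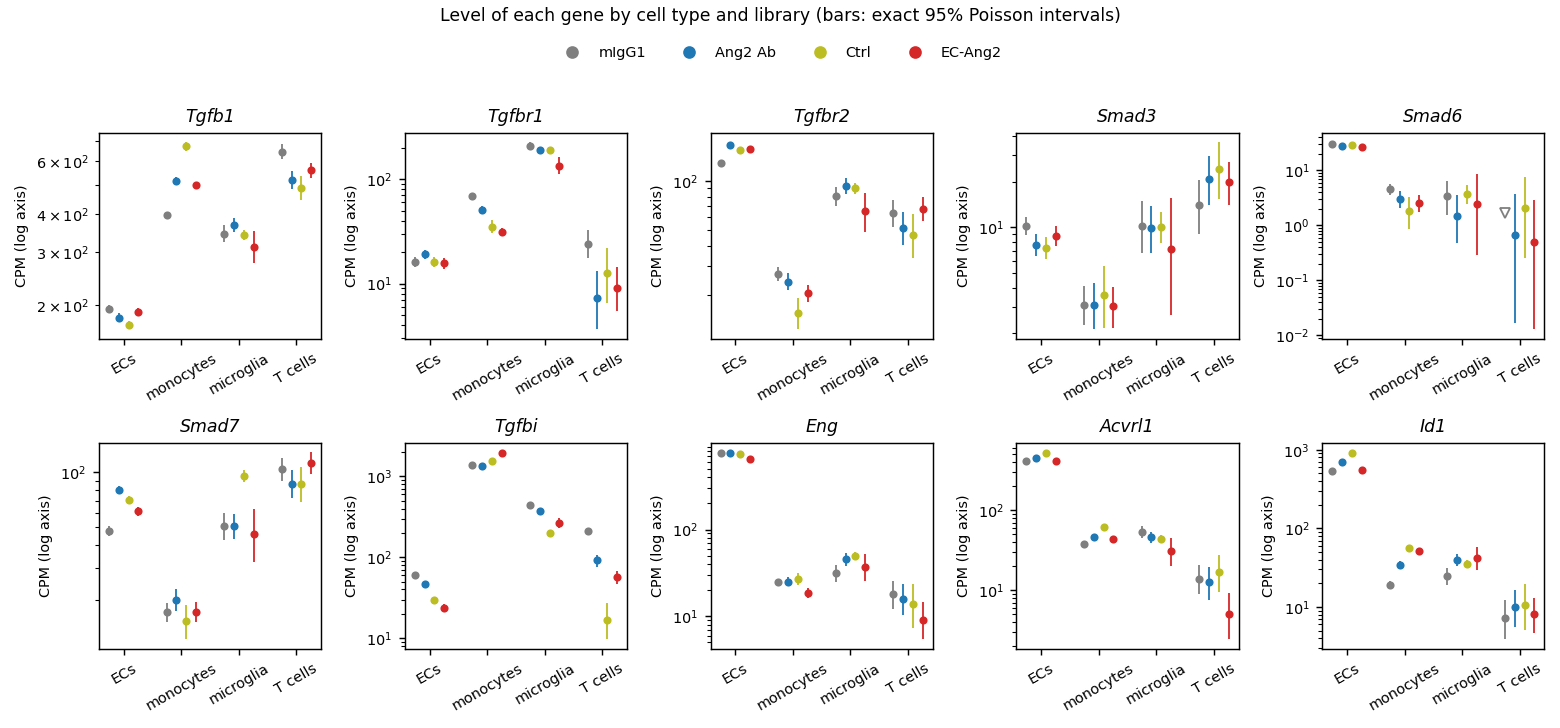
Level of each of the 10 genes (CPM, log axis) in ECs, monocytes, microglia, and T cells of the 4 libraries. Points are libraries, bars are exact 95% Poisson intervals that cover counting error only, and the open triangle for *Smad6* in mIgG1 T cells marks a count of 0, drawn at the level of 3 UMIs. *Eng*, *Acvrl1*, *Id1*, and *Smad6* stand apart from the other types in ECs, *Tgfbi* in monocytes, and *Tgfbr1* in microglia.

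*Tgfb1* (chromosome 7, 25687002 to 25705077), the TGF-β1 ligand, was found in each cell type. It had 643, 519, 489, and 559 CPM in T cells and 397, 516, 671, and 499 CPM in monocytes, ranges that overlap (553 ± 66.9 and 521 ± 113 CPM, SD, n = 4). Microglia had less, 344, 368, 342, and 311 CPM, and ECs least, 194, 181, 172, and 189 CPM. Microglia were above ECs in 4 of 4 libraries by 0.89 ± 0.14 on the log2 scale (exact sign-flip p = 0.125), and the monocyte and microglial ranges did not overlap. Carry-over gave 17.1%, 20.7%, 9.38%, and 5.64% of the EC level.

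*Tgfbr1* (chromosome 4, 47353222 to 47414931), the type I receptor for TGF-β, had its highest level in microglia, at 208, 189, 188, and 135 CPM. Monocytes had 68.4, 50.7, 35.0, and 31.3 CPM. The microglial level was above the monocyte level in every library, 4.02-fold on average (log2 2.01 ± 0.35, exact sign-flip p = 0.125). ECs had 15.6 to 19.0 CPM and T cells 24.0, 7.34, 12.7, and 9.15 CPM, and these 2 ranges overlap. Carry-over gave 36.7%, 31.0%, 24.7%, and 7.52% of the EC level. In T cells it gave 5.99%, 21.4%, 17.8%, and 7.62% of the level by EC genes and 62.6%, 166%, 104%, and 23.7% by myeloid genes. In ECs with at most 1000 CPM of 4 myeloid genes, *Tgfbr1* was at 13.1, 17.1, 15.2, and 15.0 CPM. In such T cells it was at 5.16, 4.70, 7.22, and 7.73 CPM, below these EC values.

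*Tgfbr2* (chromosome 9, 116084293 to 116175360), the type II receptor that binds the ligand, was distributed differently from its partner. ECs had 128, 166, 154, and 156 CPM and microglia 80.3, 92.8, 89.7, and 64.9 CPM, without overlap. T cells had 63.1, 51.4, 46.4, and 67.6 CPM, within reach of the microglial range, and monocytes had 27.0, 24.2, 15.5, and 20.5 CPM, below all of them. ECs exceeded microglia by 0.89 ± 0.26 on the log2 scale in 4 of 4 libraries (exact sign-flip p = 0.125). Microglia carried both receptor transcripts, and ECs held *Tgfbr2* with few *Tgfbr1* UMIs (a UMI in 7.95% to 11.6% of ECs, with the carry-over shares given above).

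*Acvrl1* and *Eng*, the endothelial BMP receptor and its coreceptor, were in ECs at levels far above those of the other types. *Acvrl1* (chromosome 15, 101128522 to 101145336) had 416, 457, 522, and 419 CPM in ECs, against 37.7, 45.9, 61.5, and 43.6 CPM in monocytes, the next type, a 9.74-fold difference on average (log2 3.28 ± 0.16, exact sign-flip p = 0.125). *Eng* (chromosome 2, 32646595 to 32682669), the plus-strand gene whose upstream sequence is shown above, had 762, 762, 747, and 648 CPM in ECs and 31.4, 45.2, 49.5, and 37.3 CPM in microglia (18.1-fold, exact sign-flip p = 0.125). When each cell was thinned to 2000 UMIs so that depth did not differ, an *Eng* UMI was found in 72.0% to 77.4% of ECs and in 1.23% to 4.35% of T cells (90.7% to 94.7% and 5.25% to 9.65% without thinning, at median depths of 3754 to 6244 and 4297 to 4741 UMIs). In T cells, carry-over gave 69.6% to 98.9% of the *Eng* level and 48.0% to 106% of the *Acvrl1* level, so that both genes were at or near the carry-over level there. In monocytes it gave 40.4% to 56.0% of the *Eng* level and 13.4% to 20.7% of the *Acvrl1* level.

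*Smad3* (chromosome 9, 63646767 to 63757994), which carries the TGF-β signal to the nucleus, had few UMIs. It had 14.0, 20.7, 24.3, and 19.8 CPM in T cells, 10.2, 9.88, 10.1, and 7.21 CPM in microglia, 10.2, 7.67, 7.33, and 8.80 CPM in ECs, and 3.01 to 3.57 CPM in monocytes. T cells were higher than microglia in 4 of 4 libraries (2.09-fold, exact sign-flip p = 0.125), whereas microglia and ECs overlap. The T cell values rest on 23 to 39 UMIs per library.

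Of the inhibitory SMADs, *Smad6* (chromosome 9, 63953076 to 64022059) was an EC gene, and *Smad7* (chromosome 18, 75367529 to 75395935) was not. *Smad6* had 30.2, 27.4, 29.1, and 26.3 CPM in ECs and 4.56, 2.98, 1.79, and 2.51 CPM in monocytes, a difference of 10.1-fold on average (log2 3.34 ± 0.54, exact sign-flip p = 0.125). In T cells it was seen as 0, 1, 2, and 1 UMIs, where a count of 0 among the 311 mIgG1 T cells allows a share of up to 0.965% of cells with a UMI. *Smad7* had 104, 86.7, 86.5, and 113 CPM in T cells, 47.8, 79.9, 70.5, and 61.3 CPM in ECs, 50.7, 50.6, 95.2, and 45.7 CPM in microglia, and 17.1, 20.0, 15.2, and 17.2 CPM in monocytes. The EC and microglial ranges of *Smad7* overlap, T cells lie above ECs, and monocytes lie below all other types. The T cell and microglial ranges also overlap, with 86.5 CPM in Ctrl T cells and 95.2 CPM in Ctrl microglia.

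*Id1* (chromosome 2, 152736251 to 152737410), a BMP target that encodes an inhibitor of basic helix-loop-helix transcription factors, had 535, 704, 914, and 549 CPM in ECs. Monocytes had 19.3, 34.6, 55.7, and 51.3 CPM, 17.7-fold less on average (log2 4.15 ± 0.58, exact sign-flip p = 0.125), and microglia had 24.6, 39.5, 35.2, and 42.1 CPM. The T cell level of 7.26 to 10.5 CPM was below the level that carry-over would give (117% to 188% of it). In monocytes, carry-over gave 69.8%, 45.6%, 30.1%, and 26.0% of the level, and in microglia 64.2%, 40.5%, 52.5%, and 23.5%.

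*Tgfbi* (chromosome 13, 56609523 to 56639562) encodes a secreted matrix protein first described as TGF-β induced. It had 1396, 1344, 1558, and 1956 CPM in monocytes and 441, 372, 200, and 267 CPM in microglia (5.06-fold apart, exact sign-flip p = 0.125). Of thinned monocytes, 79.0% to 89.3% had a UMI. In ECs it had 60.6, 47.3, 29.2, and 23.9 CPM, of which carry-over gave 86.8%, 99.7%, 69.9%, and 86.3%, and the EC level was 4.34%, 3.52%, 1.87%, and 1.22% of the monocyte level, against 3.55%, 3.20%, 1.37%, and 1.52% for the sum of *Ccr2*, *Plac8*, *Chil3*, and *Ms4a4c*. In microglia *Tgfbi* was 31.6%, 27.6%, 12.8%, and 13.6% of the monocyte level, beside 12.5%, 12.5%, 6.20%, and 3.91% for the sum of these monocyte markers. The highest single one of them was at 31.6%, 17.5%, 7.61%, and 13.4%, the same as *Tgfbi* in mIgG1 and close to it in *EC-Ang2*. *Lyz2*, a gene of myeloid cells in general, was at 26.0%, 22.3%, 10.9%, and 10.3%.

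ECs were next divided by markers of vessel type, since ALK1 is known for its arterial expression. ECs with at least 2 markers of a set, and more of that set than of the others, were called arterial (*Bmx*, *Sema3g*, *Stmn2*, *Vegfc*), capillary-arterial (*Cxcl12*, *Ddc*, *Ivns1abp*, *Mfsd2a*), or venous (*Nr2f2*, *Slc38a5*, *Vwf*). Arterial ECs were 9.14%, 8.11%, 7.93%, and 9.21% of ECs, capillary-arterial ECs 26.5%, 30.0%, 50.2%, and 19.7%, and venous ECs 32.9%, 28.6%, 16.5%, and 38.4%. The remaining 25.4% to 33.3% met no set or tied between sets, and no capillary-venous set was used. Venous ECs had more UMIs per cell (a median of 4854 to 9186) than capillary-arterial ECs (3279.5 to 4172), and a deeper cell meets a set more easily.

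*Smad6* was highest in arterial and lowest in venous ECs of each library. It had 104, 111, 124, and 117 CPM in arterial ECs, 33.4, 28.3, 23.3, and 30.7 CPM in capillary-arterial ECs, and 12.8, 12.2, 10.1, and 13.6 CPM in venous ECs, a 9.40-fold difference between the ends (log2 3.23 ± 0.27, higher in 4 of 4 libraries, exact sign-flip p = 0.125). The same order was found for *Smad7*, with 87.9 to 122 CPM in arterial, 58.9 to 104 CPM in capillary-arterial, and 31.2 to 50.1 CPM in venous ECs (2.74-fold between arterial and venous). *Id1* had 946, 990, 1211, and 1175 CPM in arterial, 698, 925, 1151, and 787 CPM in capillary-arterial, and 341, 430, 449, and 362 CPM in venous ECs (2.73-fold between arterial and venous). *Eng* (1131 to 1208, 716 to 867, and 529 to 608 CPM) and *Acvrl1* (606 to 737, 466 to 550, and 318 to 396 CPM) were lower from each of these subsets to the next within 4 of 4 libraries. *Smad3* ran the other way, with 3.82 to 6.51 CPM in arterial and 10.1 to 12.8 CPM in venous ECs (2.33-fold higher in venous ECs in 4 of 4 libraries, exact sign-flip p = 0.125), on 6 to 11 UMIs in the arterial ECs of a library. *Tgfb1* and *Tgfbr1* differed between arterial and venous ECs by 1.07-fold and 1.08-fold, with both signs among the libraries.

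**Figure D2:**
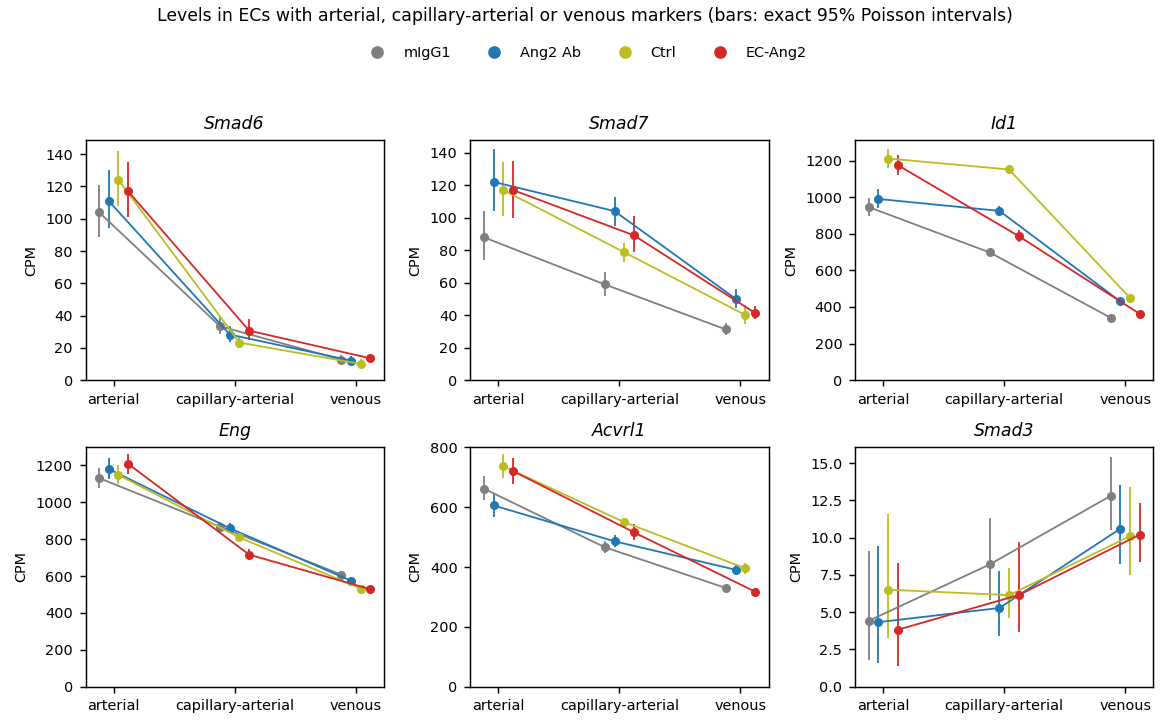
Levels (CPM) of *Smad6*, *Smad7*, *Id1*, *Eng*, *Acvrl1*, and *Smad3* in ECs with arterial, capillary-arterial, or venous markers. Points are libraries joined across subsets, and bars are exact 95% Poisson intervals. *Smad6* has 104 to 124 CPM in arterial and 10.1 to 13.6 CPM in venous ECs, and *Smad3* has its highest level in venous ECs in each library.

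To ask whether Ang2 blockade moved these genes, Ang2 Ab was compared with mIgG1 in each cell type. Since a condition is 1 library, no test between conditions exists, and a rule of size stands in its place: a gene was counted as measured with a UMI in at least 10% of the cells of 1 library and 50 UMIs in both together, and as changed past 1.5-fold. Log2 ratios are treated over control CPM, and their exact 95% intervals hold counting error alone and leave out how mice or libraries vary. Over the 4 cell types, 30 of the 40 values were measured, of which 3 were higher and 1 was lower past 1.5-fold. In ECs it was 1 of 8 genes, beside 2.83% of all measured genes, in monocytes 1 of 8, beside 6.23%, in microglia 1 of 9, beside 11.9%, and in T cells 1 of 5, beside 10.2%. In each type this is a single gene, so that the shares cannot be read as a difference between these genes and the rest.

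The inhibitory SMAD gene *Smad7* was the member past the rule in ECs, at 47.8 CPM with mIgG1 and 79.9 CPM with Ang2 Ab (log2 ratio 0.74, interval 0.62 to 0.86). Both transgenic-pair libraries lie between these values, at 70.5 and 61.3 CPM. The ratio had the same sign in each vessel subset, 0.47 (0.14 to 0.81) in arterial, 0.82 (0.60 to 1.03) in capillary-arterial, and 0.68 (0.44 to 0.92) in venous ECs, and was 0.63 with the 3 subsets weighted equally. The ECs of the libraries also lay in different clusters, with 331 mIgG1 and 1324 Ang2 Ab cells in one EC cluster and 485 and 143 in another, whose part in the ratio was not tested. The ratios of *Id1* (0.40, 0.36 to 0.43) and *Tgfbr2* (0.37, 0.29 to 0.45) did not reach 1.5-fold, and were 0.24 and 0.27 with equal weights. By subset, the *Id1* ratio was 0.07 (−0.04 to 0.17) in arterial, 0.41 (0.34 to 0.47) in capillary-arterial, and 0.33 (0.26 to 0.41) in venous ECs. *Eng* was at 762 CPM in both, with a log2 ratio between −0.03 and 0.03, and *Smad6* (−0.14, −0.31 to 0.04) had an interval that includes 0.

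*Id1* was the member past the rule in both myeloid types. It had 19.3 and 34.6 CPM in monocytes (0.84, 0.62 to 1.06) and 24.6 and 39.5 CPM in microglia (0.68, 0.24 to 1.13). Carry-over alone would give 69.8% and 45.6% of the monocyte levels and 64.2% and 40.5% of the microglial levels. With this amount subtracted, the ratios were 1.69 and 1.42, and with cells thinned to 2000 UMIs the microglial ratio was 0.40, below 1.5-fold. With the median log2 ratio of all genes set to 0, the microglial ratio was 0.58, also below 1.5-fold. In the monocyte gate the dendritic cell genes named above were at 40.0 and 324 CPM, and the cells were spread differently over clusters (664 mIgG1 and 149 Ang2 Ab cells in one monocyte cluster and 129 and 372 in another). The part of these differences in the *Id1* ratio was not tested. The related target *Id3*, from the list of other pathway genes, had 34.5 and 54.8 CPM in monocytes (0.67, 0.50 to 0.84) and 34.5 and 52.4 CPM in microglia (0.60, 0.23 to 0.99). Carry-over would give 76.2% and 56.0% of these monocyte levels and 89.4% and 59.6% of the microglial levels. The ligand *Tgfb1* was at 397 and 516 CPM in monocytes (0.38, 0.32 to 0.43), while its receptor *Tgfbr1* was at 68.4 and 50.7 CPM (−0.43, −0.58 to −0.28).

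*Tgfbi* in T cells was at 210 CPM with mIgG1 and 91.4 CPM with Ang2 Ab (−1.20, −1.49 to −0.91). Myeloid carry-over would give 64.0% and 106% of these levels, and a *Tgfbi* UMI was found in 21.5% and 13.8% of the cells. Carry-over measured by EC genes would give 6.12% and 13.7%, and with that amount subtracted the ratio was −1.32. In the 139 and 188 T cells with at most 1000 CPM of 4 myeloid genes (*Lyz2*, *Fcer1g*, *C1qa*, and *C1qb*), *Tgfbi* was at 29.7 and 20.7 CPM, and the log2 ratio was −0.52. With the highest Scrublet doublet scores removed, the ratio was −0.03.

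**Figure D3:**
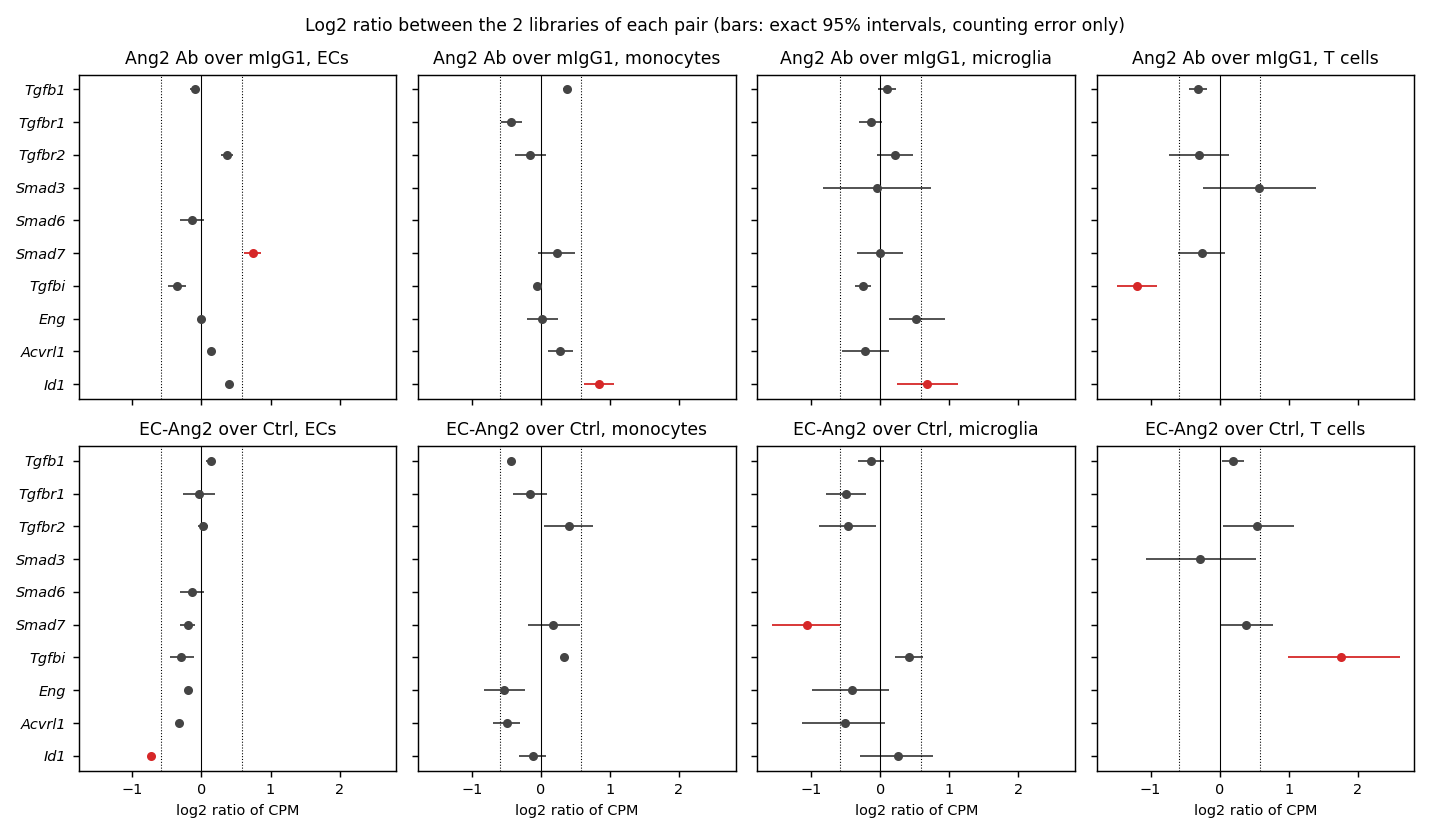
Log2 ratio of CPM between the libraries of the blockade pair (top) and of the overexpression pair (bottom) for each measured gene in 4 cell types. Bars are exact 95% intervals for counting error, dotted lines mark 1.5-fold, and red marks the 7 values past it, *Smad7* in ECs, *Id1* in monocytes and microglia, and *Tgfbi* in T cells with blockade, and *Id1* in ECs, *Smad7* in microglia, and *Tgfbi* in T cells with overexpression.

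The comparison of *EC-Ang2* with Ctrl asks the converse, what endothelial Ang2 overexpression goes with. Of the 40 values 30 were measured, with 1 higher and 2 lower past 1.5-fold. By type, this was 1 of 9 genes in ECs, beside 10.8% of all measured genes, 0 of 8 in monocytes, beside 11.5%, 1 of 8 in microglia, beside 23.1%, and 1 of 5 in T cells, beside 11.4%. With at most 1 gene per type, these counts are close to the background. The count of 3 depended on how cells were taken: it was 7 without cycling cells and 9 with cell types taken from clusters.

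*Id1* in ECs had 914 CPM in Ctrl and 549 CPM in *EC-Ang2* (log2 ratio −0.73, −0.77 to −0.70), and a UMI was found in 71.3% and 57.0% of thinned ECs. The ratio was −0.04 (−0.14 to 0.05) in arterial, −0.55 (−0.61 to −0.48) in capillary-arterial, and −0.31 (−0.39 to −0.23) in venous ECs. With the 3 subsets weighted equally, it was −0.27, below 1.5-fold, beside capillary-arterial ECs that were 50.2% of Ctrl and 19.7% of *EC-Ang2* ECs. Equal weights give arterial ECs, 7.93% and 9.21% of ECs, as much weight as each other subset. They leave out the unassigned 25.4% and 32.7% of ECs, in which *Id1* was at 825 and 609 CPM. *Acvrl1* (522 and 419 CPM, −0.32, −0.36 to −0.27) and *Eng* (747 and 648 CPM, −0.20, −0.24 to −0.17) did not reach 1.5-fold, and were −0.11 and −0.02 with equal weights. *Smad6* and *Smad7* had log2 ratios of −0.14 and −0.20, and 0.03 and 0.07 with equal weights. *Tgfbr2* was at 154 and 156 CPM.

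In microglia, *Smad7* was at 95.2 CPM in Ctrl and 45.7 CPM in *EC-Ang2* (−1.06, −1.57 to −0.59). The *EC-Ang2* value rests on 38 UMIs of 64 cells and is close to the 50.7 and 50.6 CPM of the blockade pair, while Ctrl stands above all 3. The near equality within the blockade pair depended on the processing. Its microglial *Smad7* ratio was 0.38 with a stricter marker gate and 0.45 with the mean of each cell's CPM. It was 1.29 with cells thinned to 2000 UMIs, and −0.11 to 0.31 under the other alternatives. Between Ctrl and *EC-Ang2*, *Tgfbr1* (188 and 135 CPM, −0.49, −0.78 to −0.21) and *Tgfbr2* (89.7 and 64.9 CPM, −0.47, −0.89 to −0.06) did not reach 1.5-fold. *Tgfbi* was at 200 and 267 CPM (0.42, 0.21 to 0.62). The median of the 8 measured members was −0.44, against −0.06 over all 7197 measured genes, of which 1146 were lower and 516 higher past 1.5-fold. In ECs, monocytes, and T cells of the pair the member median was −0.20, −0.14, and 0.38, against −0.04, 0.03, and −0.02. Cycling cells were part of the microglial gate, and without them (639 Ctrl and 38 *EC-Ang2* cells left) the *Smad7* ratio was −1.87. *Tgfbr1* (−0.59), *Tgfbi* (0.89), *Eng* (−0.64), and *Acvrl1* (−0.62) were then past 1.5-fold as well. With the mean of each cell's CPM and with cell types from clusters, *Tgfbr1* (−0.76 and −0.73), *Tgfbr2* (−0.73 and −0.66), and *Tgfbi* (0.76 and 0.98) also passed it. *Id1* was at 35.2 CPM in Ctrl and 42.1 CPM in *EC-Ang2* microglia (0.26, −0.30 to 0.77). It was higher past 1.5-fold with cell types from clusters (0.76) and with carry-over subtracted (0.94).

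No member passed 1.5-fold in monocytes. *Id1* was at 55.7 CPM in Ctrl and 51.3 CPM in *EC-Ang2* (−0.12, −0.31 to 0.08). *Tgfb1* was at 671 CPM in Ctrl and 499 CPM in *EC-Ang2* (−0.43, −0.48 to −0.37), and *Tgfbi* was at 1558 and 1956 CPM (0.33, 0.29 to 0.36). *Eng* had a log2 ratio of −0.53 (−0.82 to −0.23), which was past 1.5-fold with cell types from clusters (−0.62), with carry-over subtracted (−0.78), and with the mean of each cell's CPM (−0.60), and *Acvrl1* of −0.49 (−0.69 to −0.30). The granulocyte genes named above were at 11880 CPM in Ctrl and 2716 CPM in *EC-Ang2* in these cells, and their part in the ratios was not tested.

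*Tgfbi* in T cells was at 16.9 CPM in Ctrl, on 16 UMIs, and at 56.9 CPM in *EC-Ang2*, on 112 UMIs (1.75, 0.99 to 2.61). Myeloid carry-over would give 402% and 67.0% of these levels, and carry-over measured by EC genes 68.9% and 21.6%. With T cells taken from a cluster in place of the marker gate the ratio was −0.64, so that its direction depends on which cells are called T cells. In T cells with at most 1000 CPM of the 4 myeloid genes the levels were 4.33 and 19.3 CPM. *Smad7*, the inhibitory SMAD with its highest mean level in T cells, was at 86.5 and 113 CPM (0.38, 0.01 to 0.77).

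**Figure D4:**
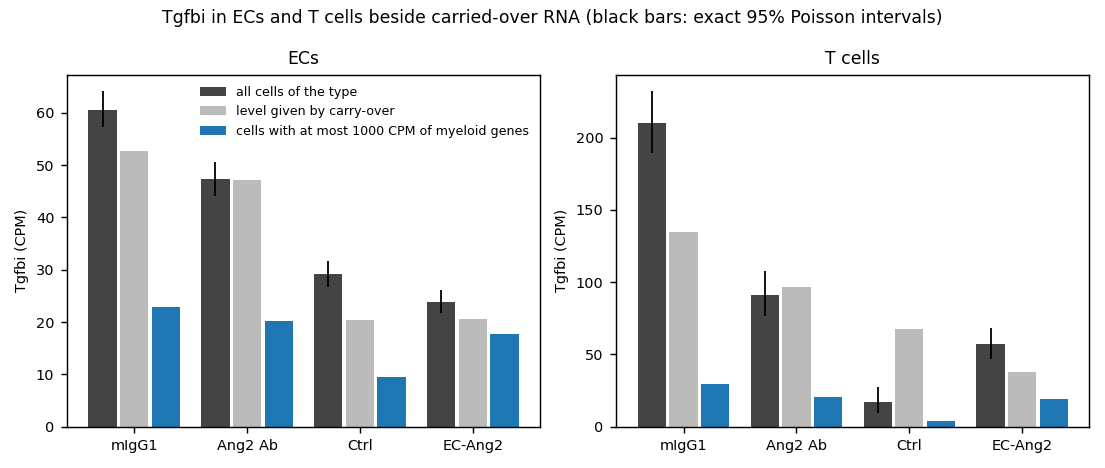
*Tgfbi* (CPM) in ECs and T cells of the 4 libraries, over all cells of the type (dark), as the level that carried-over RNA alone would give (light), and in cells with at most 1000 CPM of 4 myeloid genes (blue). Carry-over was measured by immune genes in ECs and by myeloid genes in T cells. In ECs it gives 69.9% to 99.7% of the level. In T cells it gives more than the measured level in Ang2 Ab (106%) and Ctrl (402%), and the blue bars stay at 4.33 to 29.7 CPM. Carry-over measured by EC genes, which is not drawn, would give 6.12%, 13.7%, 68.9%, and 21.6% of the T cell level.

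The other genes of the pathway were taken from a list of 54 ligands, receptors, SMADs, inhibitors, latency proteins, and targets, of which 53 had a single row. With blockade, 2 of 24 measured genes were higher past 1.5-fold in ECs and none was lower, beside 2.83% of all measured genes past it in either direction. In monocytes 3 of 19 were higher, beside 6.23%, in microglia 3 of 23 were higher and 1 was lower, beside 11.9%, and in T cells 1 of 14 was higher and 2 were lower, beside 10.2%. With overexpression, 6 of 27 were higher and 3 lower in ECs, beside 10.8%, 2 of 18 were lower in monocytes, beside 11.5%, 1 of 21 was higher and 5 were lower in microglia, beside 23.1%, and 1 of 13 was lower in T cells, beside 11.4%. The median log2 ratio with blockade was 0.04 in ECs, 0.11 in monocytes, 0.10 in microglia, and 0.08 in T cells, against 0.03, 0.03, 0.10, and 0.03 over all measured genes. With overexpression it was 0.21, 0.11, −0.23, and −0.05, against −0.04, 0.03, −0.06, and −0.02.

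In ECs of *EC-Ang2* mice, 2 of the listed targets were above Ctrl past 1.5-fold. *Ctgf*, a matricellular growth factor, was at 9.55 and 30.2 CPM (1.66, 1.42 to 1.90) and *Col4a1*, a basement membrane collagen, at 237 and 417 CPM (0.82, 0.77 to 0.87). *Lrrc32*, which holds latent TGF-β at the cell surface, was at 29.8 and 54.6 CPM (0.87, 0.73 to 1.02), and *Fkbp1a*, whose product binds type I receptors, at 929 and 1912 CPM (1.04, 1.02 to 1.07). *Smad5*, a SMAD of the BMP branch, and the corepressor *Tgif1* were also higher, with ratios of 0.64 (0.48 to 0.81) and 0.77 (0.62 to 0.92). Carry-over would give 24.2% and 8.35% of the *Tgif1* levels in Ctrl and *EC-Ang2*. Lower in these ECs were the ligand *Tgfb2* (70.6 and 26.5 CPM, −1.41, −1.56 to −1.27), the Notch and BMP target *Hey1* (50.7 and 26.6 CPM, −0.93, −1.08 to −0.78), and *Tsc22d1*, a TGF-β-stimulated transcription factor gene (2514 and 1100 CPM, −1.19, −1.22 to −1.17). In monocytes, microglia, and T cells of the pair *Tsc22d1* had ratios of −1.25, −1.59, and −1.54, where carry-over measured by EC genes would give 73.3% and 105%, 69.4% and 85.3%, and 91.1% and 117% of the levels in Ctrl and *EC-Ang2*. Mural cell RNA in the EC gate was at 727 CPM in Ctrl and 346 CPM in *EC-Ang2*, and its part and that of vessel subsets in the EC ratios were not tested.

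**Figure D5:**
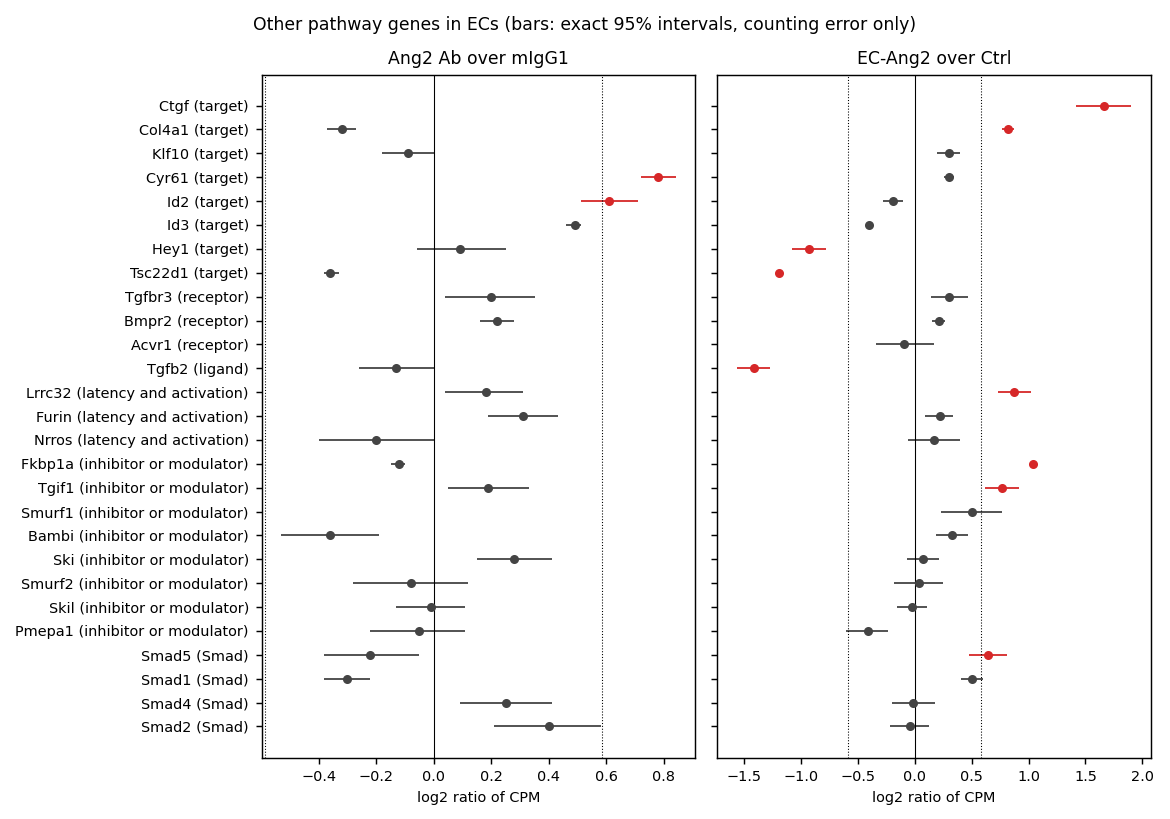
Log2 ratio of CPM in ECs for the 27 other pathway genes measured in the overexpression pair, shown for blockade (left) where measured and for overexpression (right), with separate horizontal scales. Bars are exact 95% intervals for counting error, dotted lines mark 1.5-fold, and red marks values past it; *Ctgf* reaches 1.66 on the right, and *Cyr61* (0.78) and *Id2* (0.61) are the red points on the left.

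With blockade, the EC genes past 1.5-fold were *Cyr61*, a matricellular protein gene, at 197 and 338 CPM (0.78, 0.72 to 0.84), and *Id2*, of the same family as *Id1*, at 67.0 and 102 CPM (0.61, 0.51 to 0.71). Carry-over would give 7.28% and 5.70% of the *Cyr61* levels and 37.6% and 25.2% of the *Id2* levels. *Id3* in ECs did not reach 1.5-fold in either pair, with 1364 and 1912 CPM in mIgG1 and Ang2 Ab (0.49, 0.46 to 0.51) and 1947 and 1478 CPM in Ctrl and *EC-Ang2* (−0.40, −0.42 to −0.38), the same signs as for *Id1*. The BMP type II receptor *Bmpr2* was 198, 231, 183, and 212 CPM in ECs, with ratios of 0.22 (0.16 to 0.28) and 0.21 (0.15 to 0.27), the coreceptor *Tgfbr3* had ratios of 0.20 and 0.30, and *Smad1* had ratios of −0.30 (−0.38 to −0.22) and 0.50 (0.41 to 0.60). *Smad2*, the partner of *Smad3*, had ratios of 0.40 (0.21 to 0.58) and −0.04 (−0.22 to 0.13).

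In monocytes with blockade, *Inhba*, which encodes an activin subunit, was at 325 and 558 CPM (0.78, 0.72 to 0.83), with *Pmepa1*, a TGF-β-induced inhibitor, at 37.9 and 57.8 CPM (0.61, 0.44 to 0.77) and *Id3* at the ratio given above. In microglia with blockade, *Inhba* (0.82), *Furin*, a protease that processes TGF-β (0.79), and *Id3* (0.60) were higher, and *Thbs1*, an activator of latent TGF-β, was lower there (−0.82, −1.04 to −0.60) and in T cells (−1.28), where *Tsc22d1* had a ratio of −0.98 and *Id3* of 1.01 (0.42 to 1.62). In the microglial gate *Inhba* was at 74.2 and 131 CPM, beside 325 and 558 CPM in monocytes. There *Ccr2*, *Plac8*, *Chil3*, and *Ms4a4c* summed to 12.5% and 12.5% of the monocyte level, and *Lyz2* was at 26.0% and 22.3%. The part of monocyte RNA in the microglial *Inhba* ratio was not tested. *Thbs1* was at 480 and 384 CPM in monocytes of the pair. Between mIgG1 and Ang2 Ab, the 5 monocyte markers were at 7822 and 4325 CPM in the microglial gate and at 3698 and 2387 CPM in T cells, and myeloid carry-over would give 66.2% and 104% of the *Thbs1* level in T cells. In T cells, carry-over measured by EC genes would give 6.33% and 13.4% of the *Thbs1* level. It would give 57.2% and 122% of the *Tsc22d1* level and 123% and 78.7% of the *Id3* level. With overexpression, *Id3* was at 66.6 and 35.8 CPM in monocytes (−0.90, −1.09 to −0.70) and at 52.4 and 21.6 CPM in microglia (−1.28, −2.05 to −0.60), of which carry-over would give 52.6% and 80.4% and 73.7% and 98.7%. The 64 microglia of *EC-Ang2* also had less *Skil* (−1.05), *Klf10* (−1.05), and *Gdf15* (−0.59, −1.25 to 0.01) and more *Bmpr1a* (0.63, −0.66 to 1.73), of which *Gdf15* and *Bmpr1a* have intervals that include 0.

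Genes with the pattern most like each member over the 16 type-by-library levels were sought among 10237 genes by Pearson's r of log2(CPM + 10). The 16 levels share libraries and cell types, so that r is a description. For *Eng* they were *Ppp1r13b*, *Abcg2*, and *Lima1* (0.993 to 0.995), for *Acvrl1* *Scarb1*, *Slc12a4*, and *Rit1* (0.985 to 0.988), for *Id1* *Pttg1ip*, *Clic4*, and *Rab11a* (0.989 to 0.993), and for *Smad6* *Porcn*, *Btbd3*, and *Cracr2b* (0.990 to 0.992). *Tgfbr1* was nearest to *Marcks*, *Epb41l2*, and *Wdr81* (0.975 to 0.983), and *Tgfbi* to *Arg1*, *Pla2g7*, and *F10* (0.982 to 0.985). Members present in several types had less similar neighbors, *Btg1*, *Lrrfip1*, and *AI662270* for *Tgfb1* (0.962 to 0.975), *Npepl1*, *Pura*, and *Zmpste24* for *Tgfbr2* (0.956 to 0.961), *Ints7*, *Ccnc*, and *Tsr3* for *Smad3* (0.952 to 0.968), and *Pold2*, *Ubn1*, and *Hnrnpr* for *Smad7* (0.955 to 0.956).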

How the data were processed

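The authors deposited, for each library, UMI counts per gene and barcode, unnormalized and with empty droplets included. Per the labels, libraries were made from sorted SC cells, and the submitters' processing notes list Cell Ranger 2.1.1, Seurat 2.3.4, and the mm10 build. From these counts, barcodes with at least 2000 UMIs were kept. A cell was assigned to the type whose markers it held at 3 or more UMIs and 200 CPM (*Cldn5*, 5 and 500 CPM), and cells holding markers of 2 or more types (195 to 377 per library) were left out, which was also how doublets were treated. Cells of no type numbered 867 to 1429 per library. Of the T cell markers, *Trbc2* was not used here. Between 1 and 58 cells of a type and library lay within 1.5 times the CPM limit. UMIs were summed per type and library and given as CPM. Carry-over was estimated from genes of other cell types relative to empty droplets (10 to 100 UMIs). Ratio intervals are exact conditional binomial intervals. For log2 differences between cell types, counts below 3 were set to 3, and for ratios between conditions, counts of 0. The comparison procedure was tested on simulated data. Clusters and Scrublet scores used scanpy 1.11.5. Genes named were the 10 members, listed pathway genes past 1.5-fold or among the 2 with the highest mean level of a role, and the 3 most similar genes of each member. *Ltbp4*, with 2 rows, was left out. A further listed gene is not reported here. The members and lists were chosen with earlier results of these data known, and gates were set on marker counts. Alternatives are given in the closing section.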

Additional observations from a re-analysis of the deposited data

How the results depend on the processing

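No paired analysis between conditions was possible because each condition had 1 library. The count of 5 members with their highest level in ECs was 5 under each alternative run and 5 to 5 without any 1 library. The count past 1.5-fold with blockade (4) was 1 at 2-fold and 7 with 10 UMIs in both and no filter on cells, and 3 to 6 under the other alternatives. *Smad3* in T cells (0.57) passed it without cycling cells (0.78) and with the mean of each cell's CPM (1.20), but was −0.11 with 4000 UMIs per cell. *Eng* in microglia (0.52) passed it with carry-over subtracted (0.86) and with the mean of each cell's CPM (0.59). The count with overexpression (3) was 5 with a minimum of 4000 UMIs per cell, 9 with cell types from clusters, 6 with the mean of each cell's CPM, 7 with carry-over subtracted, 7 without cycling cells, and 5 with 10 UMIs in both and no filter on cells. This count was 2 to 4 under the others. *Tgfbi* in ECs with overexpression (−0.29) was 0.83 with cell types from clusters and −1.42 with carry-over subtracted, and why was not tested. Of the 7 values past 1.5-fold, *Smad7* in ECs with blockade (0.68 to 0.78) stayed past it under the 11 alternatives that recompute it over all ECs and at 0.63 with vessel subsets weighted equally. *Smad7* in microglia with overexpression (−2.79 to −0.89) and *Id1* in monocytes with blockade (0.70 to 1.69) stayed past it too. *Id1* in ECs with overexpression ranged from −0.76 to −0.52, below 1.5-fold with cells thinned and with the mean of each cell's CPM, and was −0.27 with equal subset weights. *Id1* in microglia with blockade ranged from 0.40 to 1.42, and *Tgfbi* in T cells from −1.50 to −0.03 with blockade and from −0.64 (cell types from clusters, reversed) to 3.09 with overexpression; the cause of the reversal was not tested. The alternatives that leave out cells with myeloid RNA and weight EC subsets were chosen after seeing the data. With 64 microglia in *EC-Ang2* and 161 T cells in Ctrl, low genes there rest on few UMIs.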
